A study of Mus musculus with 16 samples.

Results

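Epididymal fat of mice that received resveratrol while on a high-fat diet (HFD) was compared with that of mice on the same diet alone, gene by gene, to ask which transcripts differed with the drug. The comparison used 7 of the 16 libraries of the series, 3 with resveratrol and 4 without. They were chosen by their group labels, and 1 further resveratrol library was set aside because Crisp1, a secreted protein of the epididymis, stood above 1000 CPM (counts per 1000000 mRNA counts of the library) in it. All mice were C57BL/6J males, 6 weeks old and about 22 g when bought. Both groups ate feed with 60% fat for 8 weeks, after which insulin resistance was assessed with an intraperitoneal glucose tolerance test. The resveratrol group was then treated for 6 weeks. Neither its dose nor its route, nor what the untreated mice received, is stated in the labels. No treatment time is given for the untreated mice, so age and time on the diet at collection may have differed between the groups. The 4 libraries of HFD with metformin and the 4 of the normal diet entered the fit for the estimate of the spread and are compared with resveratrol near the end.

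Resveratrol is a plant polyphenol studied as an activator, direct or indirect, of the deacetylase SIRT1 and of AMP-activated protein kinase (AMPK), and as an inhibitor of cyclic AMP phosphodiesterases. The epididymal pad is the largest visceral fat depot of the male mouse. In obesity it fills with macrophages that gather around dying fat cells, take up lipid and switch on lysosomal genes, among them cells that carry CD11c or TREM2. In bulk tissue, fewer cells of a type and less RNA per cell cannot be told apart.

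The libraries held 17025308 to 20531032 mRNA counts in HFD and 13734379 to 17150115 in resveratrol 1 to 3. Values below are CPM normalised by TMM (trimmed mean of M values), one value per library. A column of HFD counts that carried an animal code found in no sample title is called HFD unmatched, and the others are HFD 1 to 3. The codes of HFD 1 to 3 share their first number, which no code of the other 4 libraries carries, and what that number marks is not stated, so it and the group cannot be told apart. HFD unmatched stood apart from HFD 1 to 3: compared over genes, its counts gave a chi-square per degree of freedom of 51.5 to 75.3 against them, where they gave 12.6 to 17.5 among themselves. In a principal component analysis of the 7 libraries the first component, with 48.5% of the variance, set resveratrol 2 apart from the rest. On the second, with 24.5%, HFD unmatched, resveratrol 1 and resveratrol 3 lay at -23.5, -43.3 and -62.4. HFD 1 to 3 and resveratrol 2 lay there at 26.6 to 42.1. Neither component separated the groups. Fat cell markers summed to 37933 to 46378 CPM in HFD and to 38311 to 49448 CPM in resveratrol. The labels also speak of retina and skeletal muscle. In these 7 libraries the sum was 2.58 to 5.10 CPM over 13 markers of retina, and 67.5 to 139 CPM over 16 of skeletal muscle.

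Of 17535 genes tested, 732 (4.17%) passed the test at an adjusted p of 0.05, of which 191 (1.09%) rose and 541 (3.09%) fell with resveratrol. Rises were smaller than falls, with a median log2 change of 0.69 among the genes that rose and -1.17 among those that fell, against 0.04 over all genes tested. Of the called genes 45 rose and 334 fell by more than 2-fold. In 684 of them (188 that rose, 496 that fell) the groups did not overlap. Over all genes tested, resveratrol was higher without overlap in 9.15% and lower in 12.4%, together 21.5%. Most calls lay just under the threshold, with a median adjusted p of 0.0367 and 1 gene under 0.01. Of the 17535 genes, 3931 stood at an unadjusted p under 0.05, and limma-voom with sample weights called 5129. Leaving out HFD 1, HFD 2, HFD 3, resveratrol 1, resveratrol 2 or resveratrol 3 left 1 or 2 genes called, while leaving out HFD unmatched raised the count to 2066 (760 that rose, 1306 that fell) and DESeq2 on all libraries called 2086, with 4.4% of genes that rose and 7.49% that fell. Among the 732, every gene kept its direction in each of these fits that tested it. The RNA-binding protein gene Rbm12, described near the end, kept its call in all of them. The 106 other called genes of the named set each lost their call when any 1 of those 6 libraries was left out.

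**Figure D1:**
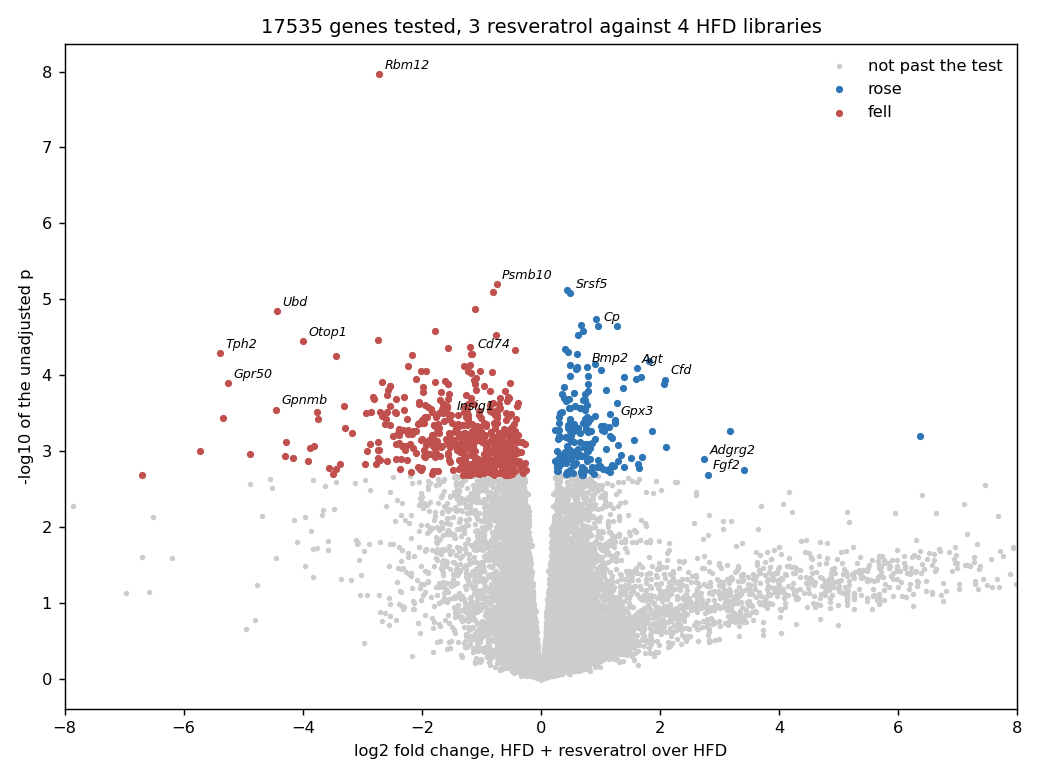
Log2 fold change of HFD with resveratrol over HFD (x axis) against -log10 of the unadjusted p (y axis) for each gene tested, with the 191 genes that rose in blue, the 541 that fell in red and the others in grey. The called genes form a band just above the threshold with longer folds on the left, and 13 genes beyond a log2 change of 8 in either direction lie outside the axes.

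**Figure D2:**
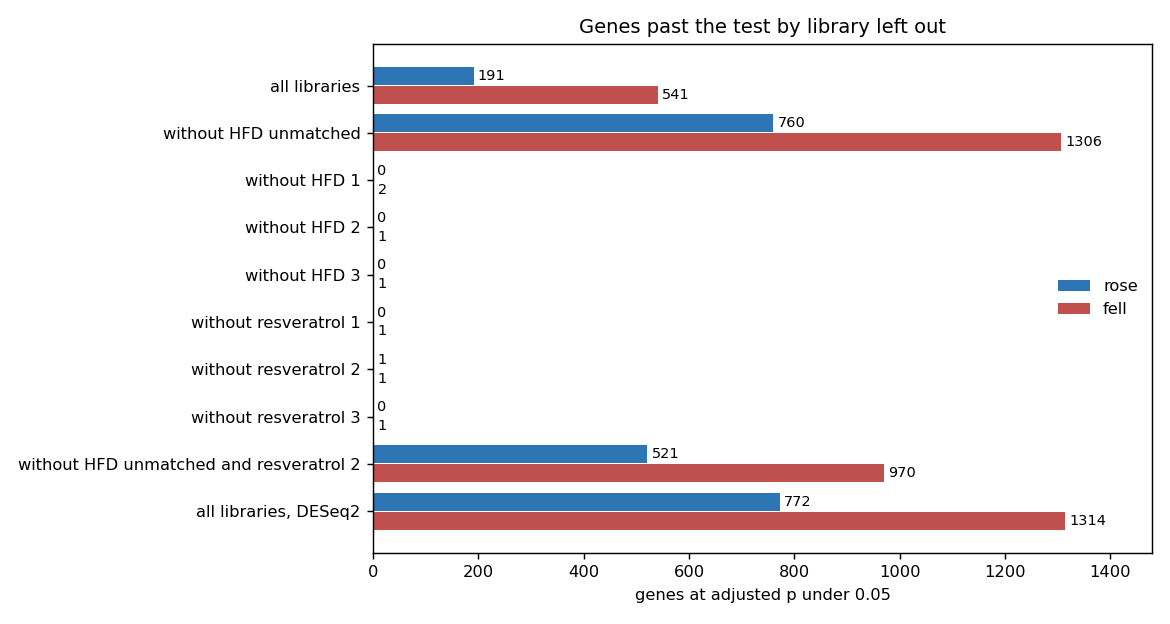
Number of genes past the test (x axis) that rose (blue) and fell (red) with all libraries, with each HFD and resveratrol library left out in turn, with HFD unmatched and resveratrol 2 both left out, and with DESeq2. Bars exceed the count with all libraries where HFD unmatched is left out and nearly vanish where any other HFD or resveratrol library is left out alone.

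Macrophage transcripts were lower with resveratrol. Of 27 macrophage markers 12 fell and none rose, against 3.09% and 1.09% of all genes, with a median log2 change of -0.99. Itgax (chromosome 7, 128129547 to 128150657; positions are those of GRCm38 throughout), which encodes the integrin CD11c, stood at 36.5 CPM in HFD unmatched, 205, 260.2 and 272 CPM in HFD 1 to 3, and 13.7, 20.4 and 9.13 CPM in resveratrol 1 to 3. All resveratrol libraries lay below all HFD libraries, and HFD unmatched lay nearer to the resveratrol libraries than to HFD 1 to 3. The difference was 13.5-fold (log2 fold change -3.75, SE 0.79, edgeR adjusted p = 0.036). Adgre1 (chromosome 17, 57358686 to 57483529), the gene of the macrophage antigen F4/80, gave 113 CPM in HFD unmatched, 339, 391 and 403 CPM in HFD 1 to 3, and 82.5, 74.8 and 79.9 CPM in resveratrol 1 to 3. It was lower in each resveratrol library, by 3.94-fold (log2 fold change -1.98, SE 0.38, edgeR adjusted p = 0.036), with adjusted p from 0.000502 to 0.135 as single libraries were left out. Mpeg1, a pore-forming protein of phagocytes, fell 5.77-fold, from 594 ± 261 to 103 ± 11.6 CPM (SD, n = 4 and n = 3). The antibody receptor Fcgr1 fell 3.41-fold and the membrane protein gene Ms4a7 2.95-fold. The other macrophage markers that fell were Lgals3, Fcgr3, Msr1, the transcription factor gene Spi1, C1qb, Cd68 and Csf1r. Of 13 markers of resident macrophages edgeR called 0, with 5 at an unadjusted p under 0.05, and their median log2 change was 0.16. DESeq2 called 4 of the 13, of which 3 rose and 1 fell, and limma-voom 6. Without HFD unmatched 17 of the 27 macrophage markers fell and 2 rose, and DESeq2 gave 16 and 1. Their summed level was 1954 CPM in HFD unmatched, 3997 to 4603 CPM in HFD 1 to 3 and 1588 to 1687 CPM in resveratrol 1 to 3. An exact two-sided permutation test of the sums over the 35 assignments gave p = 0.0571, or 0.18 after Benjamini-Hochberg adjustment over 63 lists. The smallest p this test can give is 0.0286, and lists at that p also stood at 0.18 after adjustment. The adjusted value therefore decides nothing here.

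Genes of lipid-associated macrophages, the foam-like cells of obese fat, were lower too. Of 26 such genes 12 fell and none rose, against 3.09% and 1.09% of all genes, with a median log2 change of -1.18. Without HFD unmatched 18 fell and 1 rose. Gpnmb (chromosome 6, 49036546 to 49070929) encodes a membrane glycoprotein found in foamy macrophages and stood at 124 CPM in HFD unmatched, 1021, 1310.1 and 1264 CPM in HFD 1 to 3, and 33.9, 64.5 and 28.9 CPM in resveratrol 1 to 3. HFD 1 to 3 lay far above the other 4 libraries, and HFD unmatched was still above each resveratrol library, a fall of 21.9-fold over all (log2 fold change -4.46, SE 0.91, edgeR adjusted p = 0.036). Trem2 (chromosome 17, 48346401 to 48354147), the lipid receptor that defines these cells, gave 15.9 CPM in HFD unmatched, 124, 149 and 165 CPM in HFD 1 to 3, and 6.87, 11.4 and 4.98 CPM in resveratrol 1 to 3. The groups did not overlap, although HFD unmatched and resveratrol 2 were close, and the fall was 14.7-fold (log2 fold change -3.88, SE 0.91, edgeR adjusted p = 0.038). Mmp12 (chromosome 9, 7344381 to 7369499), the macrophage elastase, fell 19.5-fold and stood at 44.2 CPM in HFD unmatched, 320.3, 368 and 353 CPM in HFD 1 to 3, and 9.91, 22.6 and 9.32 CPM in resveratrol 1 to 3. Atp6v0d2, a proton pump subunit of macrophages and osteoclasts, fell 29.5-fold (log2 fold change -4.88, SE 1.17, edgeR adjusted p = 0.0399). Plin2, the coat protein of lipid droplets in many cell types, stood at 530.1 CPM in HFD unmatched, 999, 1026 and 1056 CPM in HFD 1 to 3, and 331, 298 and 412 CPM in resveratrol 1 to 3. It fell 2.6-fold (log2 fold change -1.38, SE 0.31, edgeR adjusted p = 0.0365), and the droplet protein gene Plin3 fell 1.52-fold (log2 -0.61, SE 0.12, adjusted p = 0.036). Against the normal diet, the median of the 26 genes was -0.09 on the log2 scale. Of them, 0 passed the edgeR test and 1 stood at an unadjusted p under 0.05. In that comparison only 0.148% of all 17535 genes passed, and 1724 stood at an unadjusted p under 0.05.

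Genes for antigen presentation on MHC class II, the route by which phagocytes and B cells show peptides to helper T cells, were lower. Of 15 members 9 fell and none rose, against 3.09% and 1.09% of all genes, with a median log2 change of -1.11. The count of falls was 9 without HFD unmatched and 9 with DESeq2. The invariant chain gene Cd74 (chromosome 18, 60803848 to 60812646) stood at 613 CPM in HFD unmatched, 1031, 1056 and 1034 CPM in HFD 1 to 3, and 412, 463 and 372 CPM in resveratrol 1 to 3. HFD 1 to 3 lay close together, HFD unmatched lay between them and the resveratrol libraries, and no value of one group reached the other. The fall was 2.24-fold (log2 fold change -1.17, SE 0.20, edgeR adjusted p = 0.035). H2-Eb1 (chromosome 17, 34305877 to 34316199) fell 2.25-fold and H2-Aa 2.27-fold, both chains of the class II molecules themselves. Ciita, the transcriptional activator that switches the whole set on, fell from 68.5 ± 14.9 to 31.5 ± 4.67 CPM (log2 fold change -1.12, SE 0.21, edgeR adjusted p = 0.036). H2-DMb1, a subunit of the peptide exchange factor, fell 3.43-fold. Of 17 class I processing genes 4 fell, namely the immunoproteasome subunit Psmb10 (log2 -0.75, SE 0.10, adjusted p = 0.0291), Calr, H2-T23 and Pdia3, and none rose. Markers of B cells, which carry class II too, summed to 210.3 to 316 CPM in HFD and to 83.9 to 545 CPM in resveratrol, and edgeR called 0 of 14 (1 at an unadjusted p under 0.05, 0 called by DESeq2 and 3 by limma-voom).

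Cathepsins, acid hydrolases and subunits of the vacuolar proton pump, the machinery of lysosomes, showed 12 falls and no rise among 30 genes. Of all genes 3.09% fell and 1.09% rose. The median log2 change of the list was -0.71, and without HFD unmatched it showed 21 falls and 1 rise. Ctss (chromosome 3, 95526786 to 95556403), the protease that trims the invariant chain, stood at 139 CPM in HFD unmatched, 576, 684 and 692 CPM in HFD 1 to 3, and 72.1, 95.8 and 72 CPM in resveratrol 1 to 3. Every resveratrol library lay below every HFD library, by 6.54-fold on average (log2 fold change -2.71, SE 0.56, edgeR adjusted p = 0.036). Lipa, the acid lipase that frees fatty acids and cholesterol from esters, fell 3.86-fold, from 434 ± 195 to 112 ± 4.89 CPM (log2 fold change -1.95, SE 0.41, edgeR adjusted p = 0.036). Among the pump subunits Atp6v1b2 fell 2.36-fold and Atp6v1a 2.04-fold, and the hexosaminidase gene Hexa fell 2.01-fold. The macrophage markers were lower in the same libraries, and their part in these falls was not tested.

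The promoters of Mmp12 and Ctss are shown because their genes fell and they hold letters that the macrophage factor PU.1, the product of Spi1, is known to bind. Both are 300 bases, 250 before to 50 after a RefSeq start in GRCm38.p6, on the plus strand, with the match to GAGGAAGT in capitals. Both matches lie on the other strand and so read ACTTCCTC. Mmp12 spans chr9:7344147-7344446, with the match beginning at position -88 from the start. Ctss spans chr3:95526536-95526835, with the match beginning at position -2.
Mmp12: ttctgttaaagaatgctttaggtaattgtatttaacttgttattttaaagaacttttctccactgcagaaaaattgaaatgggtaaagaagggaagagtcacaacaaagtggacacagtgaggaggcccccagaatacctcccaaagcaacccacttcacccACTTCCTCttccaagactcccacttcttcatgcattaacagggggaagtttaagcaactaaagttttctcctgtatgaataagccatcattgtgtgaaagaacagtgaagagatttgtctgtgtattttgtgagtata
Ctss: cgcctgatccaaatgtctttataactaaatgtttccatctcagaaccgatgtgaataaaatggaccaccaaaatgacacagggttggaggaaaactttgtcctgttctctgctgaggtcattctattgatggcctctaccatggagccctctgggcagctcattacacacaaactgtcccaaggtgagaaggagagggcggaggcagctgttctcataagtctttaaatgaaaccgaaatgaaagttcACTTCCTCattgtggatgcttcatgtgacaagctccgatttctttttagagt
Of the macrophage and lipid-associated genes that fell, 16 of 22 had a promoter in the table and 2 of them held the letters. Of those that did not pass the test, 19 of 29 had one and 2 held the letters. A gene can have several promoters in the table, and these counts are of genes. The letters stood in 3.202% of all 32851 promoters of this length, and 3.689% of the 27025 genes with a promoter had them in at least 1. The sterol response element, searched as TCACNCCAC on both strands, stood in 1.242% of promoters and at 1.436% of genes. It was found at none of the 5 cholesterol genes that fell and had a promoter in the table, and at 1 of the 14 that did not pass, Hmgcs1.

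Some genes for signals between immune cells fell. Among 19 tested cytokine and receptor genes 3 fell, against 3.09% of all genes, namely Tnf, the receptor gene Tnfrsf1b and Tgfb1, and none rose. Tnf (chromosome 17, 35199381 to 35202007), the cytokine first linked to insulin resistance of fat, stood at 1.03 CPM in HFD unmatched, 1.88, 2.1 and 2.3 CPM in HFD 1 to 3, and 0.478, 0.207 and 0.383 CPM in resveratrol 1 to 3. It was low in every library and fell 5.03-fold (log2 fold change -2.33, SE 0.54, edgeR adjusted p = 0.0371). Of 27 tested chemokine and receptor genes 2 fell, among them Ccl7 (log2 -1.56, SE 0.29, adjusted p = 0.036), with a median log2 change of -0.63 over the list, 12 at an unadjusted p under 0.05, and 9 called by DESeq2 and 16 by limma-voom. The monocyte attractant gene Ccl2 did not pass, at 7.85 CPM in HFD unmatched, 12.8, 11.4 and 17.2 CPM in HFD 1 to 3, and 6.51, 2.75 and 4.6 CPM in resveratrol 1 to 3 (log2 -1.42, SE 0.43, adjusted p = 0.0781), and did so without HFD unmatched (adjusted p = 0.0405, over single libraries left out 0.0405 to 0.224). Of 24 tested T and NK cell markers 2 fell, the interleukin receptor gene Il7r (log2 -3.18, SE 0.71, adjusted p = 0.0365) and the T cell receptor constant region Trac (log2 -2.25, SE 0.55, adjusted p = 0.0419). Their sum was 77.6 to 149 CPM in HFD and 46.2 to 56.3 CPM in resveratrol. The stress-induced repressor gene Atf3, also switched on by inflammatory signals, gave 18.1 CPM in HFD unmatched, 99.6, 104 and 129.5 CPM in HFD 1 to 3, and 12.7, 14.8 and 6.77 CPM in resveratrol 1 to 3. It fell 7.7-fold (log2 fold change -2.94, SE 0.61, edgeR adjusted p = 0.036), with Egr2 the other of 2 immediate early genes of 23 that fell. None of the 23 rose, against 3.09% of all genes that fell and 1.09% that rose. Of the 23, 14 had a log2 change above 0, the median was 0.09, and DESeq2 called 3 that rose and 4 that fell. Of 23 tested acute-phase and inflammation-induced genes 2 fell, Ubd and Saa3, and 1 rose, Cp, against 3.09% and 1.09% of all genes. Their median log2 change was -0.43. Ubd, a ubiquitin-like protein induced by inflammation, stood at 8.27 CPM in HFD unmatched, 47.8, 43 and 69.4 CPM in HFD 1 to 3, and 1.31, 3.1 and 1.4 CPM in resveratrol 1 to 3. No resveratrol library exceeded 3.10 CPM, a fall of 21.7-fold (log2 fold change -4.44, SE 0.66, edgeR adjusted p = 0.0348). Saa3, a serum amyloid made in inflamed fat, fell 17.9-fold (log2 fold change -4.16, SE 1.01, edgeR adjusted p = 0.0416), with a log2 change of -3.50 without HFD 3.

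**Figure D3:**
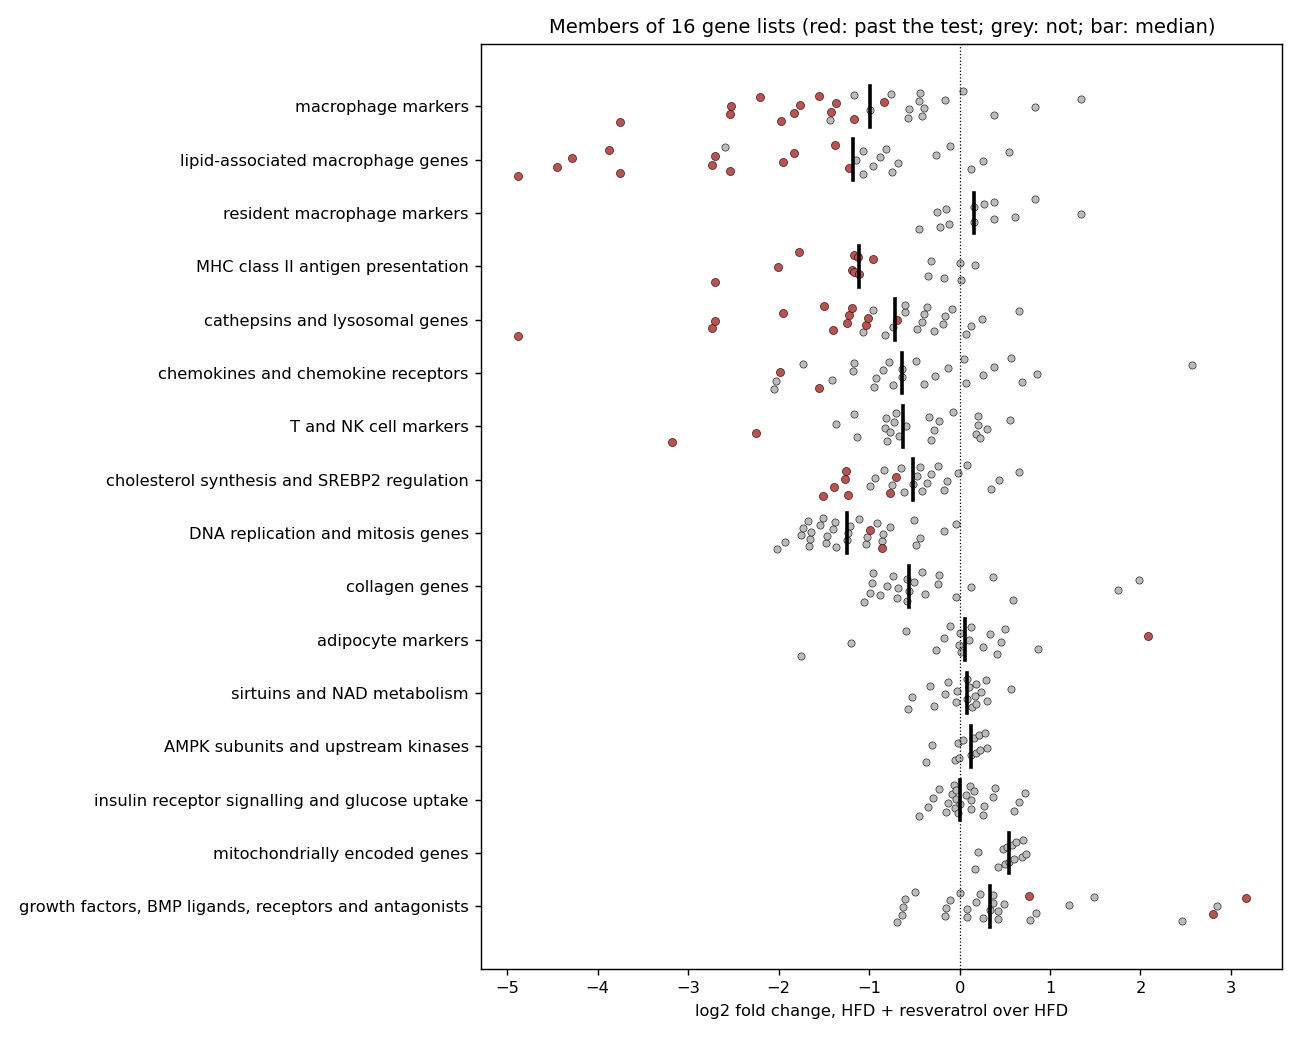
Log2 fold change of HFD with resveratrol over HFD (x axis) for each tested member of 16 gene lists (rows), with members past the test in red, others in grey and the median as a bar. The red points of the macrophage, MHC class II, lysosomal and cholesterol lists lie left of 0, and the 13 mitochondrially encoded genes all lie right of it with none past the test.

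Cholesterol synthesis genes, which the factor SREBP2 switches on when sterols run low, were lower. Of 27 genes 7 fell and none rose, against 3.09% and 1.09% of all genes (median log2 change -0.51, and 13 falls without HFD unmatched). Insig1 (chromosome 5, 28071363 to 28078662), the sensor that holds SREBP2 in the endoplasmic reticulum and is itself one of its targets, stood at 291 CPM in HFD unmatched, 525, 479 and 783 CPM in HFD 1 to 3, and 206, 216 and 124 CPM in resveratrol 1 to 3. HFD 3 was highest, resveratrol 3 lowest, and the groups did not overlap, with a fall of 2.85-fold (log2 fold change -1.51, SE 0.31, edgeR adjusted p = 0.036). Lss, the enzyme that closes the sterol rings, stood at 35.7 CPM in HFD unmatched, 73.6, 49.8 and 73.2 CPM in HFD 1 to 3, and 25, 26 and 22 CPM in resveratrol 1 to 3. It fell 2.39-fold (log2 fold change -1.26, SE 0.24, edgeR adjusted p = 0.036). Dhcr7, which carries out a late step of the pathway, fell 2.35-fold. For it, HFD unmatched at 12.6 CPM and resveratrol 1 at 12.3 CPM were nearly equal. Tm7sf2, Fdps and Hsd17b7 fell too. The summed level of the list was 1443 to 2107 CPM in HFD, 979 to 1316 CPM in resveratrol and 841 to 1004 CPM on the normal diet. Macrophage markers and cholesterol genes were both lower with resveratrol, and the part of the one in the other was not tested.

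**Figure D4:**
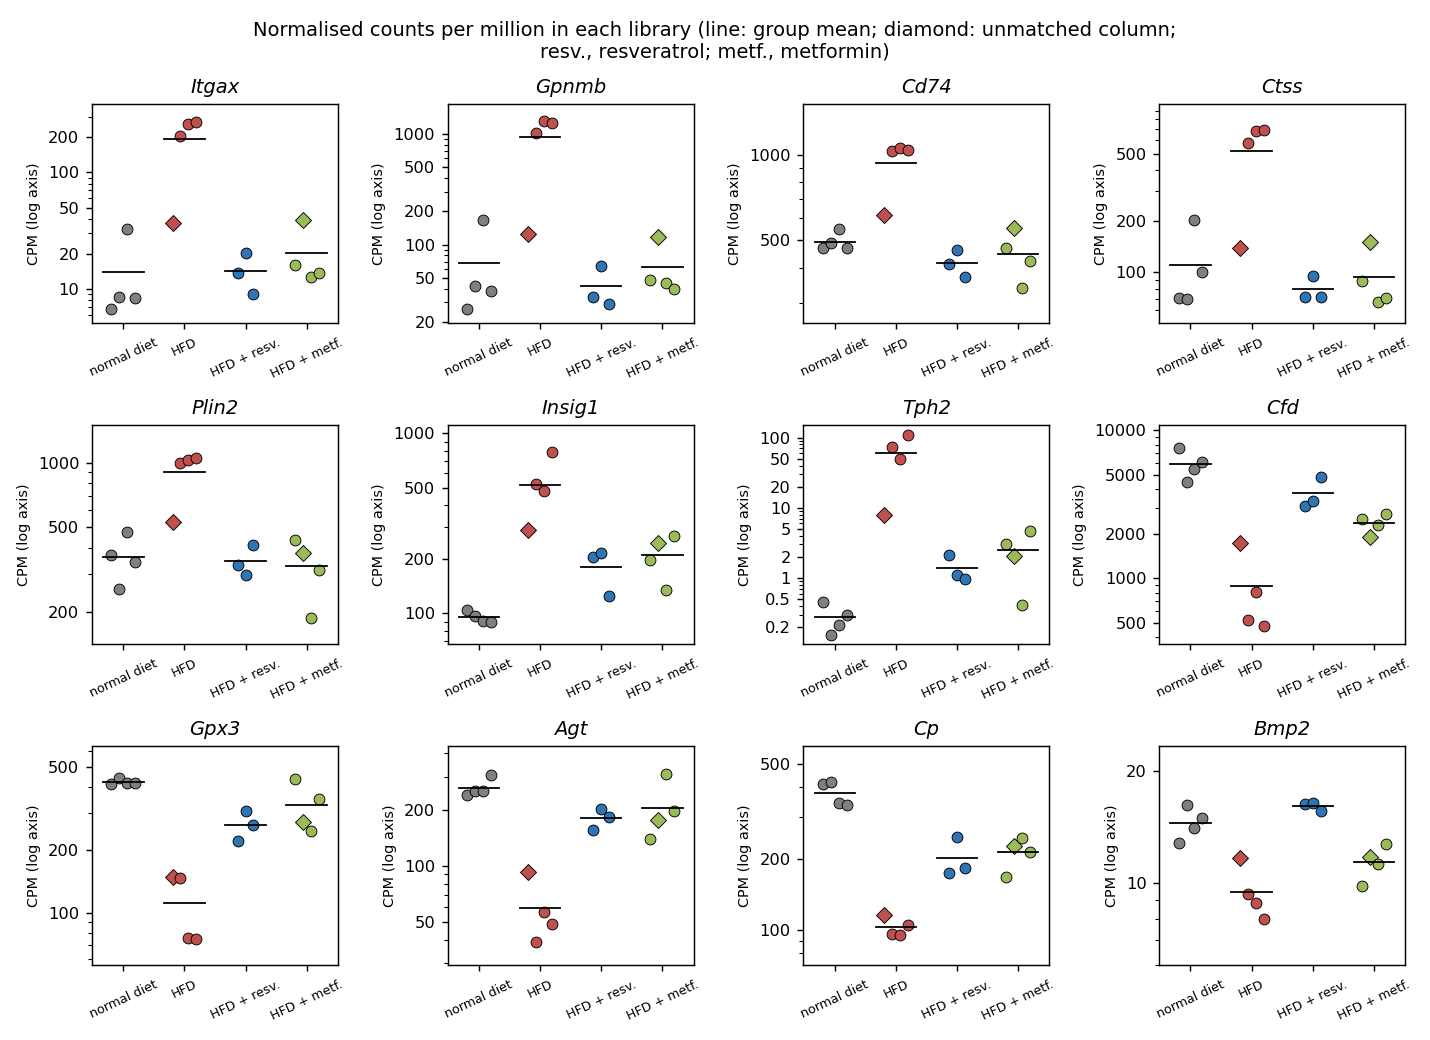
TMM-normalised CPM (y axis, log scale) of 12 genes in each library by group (x axis), with the group mean as a line and unmatched columns as diamonds. For each gene the 3 resveratrol libraries lie to one side of the 4 HFD libraries, and the HFD diamond is the HFD library nearest to them in each panel.

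Of 18 adipocyte markers edgeR called 1, Cfd, against 4.17% of all genes, and their median log2 change was 0.06. DESeq2 called 4 of them, of which 1 rose and 3 fell, and limma-voom 9, against 2086 and 5129 of all 17535 genes. Cfd (chromosome 10, 79890853 to 79892655), the fat cell protease adipsin that activates complement, stood at 1738 CPM in HFD unmatched, 521, 807 and 479 CPM in HFD 1 to 3, and 3103, 3321 and 4864 CPM in resveratrol 1 to 3. Every resveratrol library exceeded every HFD library, by 4.25-fold (log2 fold change 2.09, SE 0.38, edgeR adjusted p = 0.036). Lep (chromosome 6, 29060220 to 29073877), the hormone leptin, by which fat reports its lipid content to the brain, gave 2040.3 CPM in HFD unmatched, 3432, 2874 and 4408 CPM in HFD 1 to 3, and 1042, 1140.4 and 649 CPM in resveratrol 1 to 3. The groups did not overlap, HFD was 3.38-fold higher, and the test was missed (log2 fold change -1.76, SE 0.48, edgeR adjusted p = 0.056). Leptin passed without HFD unmatched (adjusted p = 0.0273) and in DESeq2 (adjusted p = 0.00202). In edgeR its adjusted p was 0.0273 to 0.201 as single libraries were left out. Adiponectin (Adipoq) stood at 3063 CPM in HFD unmatched, 2108, 2115 and 2204 CPM in HFD 1 to 3, and 3266, 2146 and 4044 CPM in resveratrol 1 to 3, with overlap between groups (log2 0.41, SE 0.32, adjusted p = 0.478). Fatty acid synthase (Fasn) was lower and the desaturase gene Scd1 higher in each resveratrol library, without passing (Fasn log2 -0.66, SE 0.50, adjusted p = 0.456; Scd1 log2 0.54, SE 0.29, adjusted p = 0.287). The lipase gene Pnpla2 (log2 0.46, SE 0.30, adjusted p = 0.39) and the fat cell master regulator Pparg (log2 -0.01, SE 0.24, adjusted p = 0.986) did not pass either. Mogat1, a monoacylglycerol acyltransferase, rose 2.24-fold (log2 fold change 1.17, SE 0.26, edgeR adjusted p = 0.0365), and Pgd, which makes NADPH in the pentose phosphate pathway, fell 1.66-fold (log2 fold change -0.73, SE 0.18, edgeR adjusted p = 0.0418).

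Protein activity was not measured, and at the transcript level edgeR called 0 genes of the pathways through which resveratrol is best known. These were 19 sirtuin and NAD genes, 13 AMPK subunits and upstream kinases, 17 genes of PGC-1 coactivators and mitochondrial biogenesis and 16 cyclic AMP phosphodiesterases, with median log2 changes of 0.08, 0.13, 0.10 and 0.16. In the same order, 2, 1, 3 and 6 of them stood at an unadjusted p under 0.05, DESeq2 called 0, 1, 1 and 2, and limma-voom 5, 4, 4 and 8. Of all 17535 genes, 3931 stood at an unadjusted p under 0.05, DESeq2 called 2086 and limma-voom 5129. Sirt1 (chromosome 10, 63319005 to 63381704) stood at 13.2 CPM in HFD unmatched, 12.5, 11.8 and 11.4 CPM in HFD 1 to 3, and 14.5, 15.1 and 13.6 CPM in resveratrol 1 to 3. Each resveratrol value was above each HFD value, but the difference was small (1.18-fold, log2 0.24, SE 0.20, adjusted p = 0.519). Ppargc1a, the coactivator PGC-1 alpha, gave 4.83 CPM in HFD unmatched, 4.11, 2.82 and 5.43 CPM in HFD 1 to 3, and 8, 17.2 and 6.58 CPM in resveratrol 1 to 3. It was highest in resveratrol 2 and missed the test (log2 1.30, SE 0.39, adjusted p = 0.0742), with DESeq2 giving an adjusted p of 0.0201 and edgeR 0.0669 to 0.312 as single libraries were left out. The AMPK catalytic subunit gene Prkaa2 overlapped between groups (log2 0.29, SE 0.30, adjusted p = 0.601). In insulin signalling 0 of 25 genes passed in edgeR, with 6 at an unadjusted p under 0.05. DESeq2 called 4, of which 2 rose and 2 fell, and limma-voom 8. The receptor gene Insr stood at 286 CPM in HFD unmatched, 215, 226 and 195 CPM in HFD 1 to 3, and 350.0, 274 and 423 CPM in resveratrol 1 to 3. Its substrate gene Irs1 stood at 113 CPM in HFD unmatched, 59, 76.7 and 63.8 CPM in HFD 1 to 3, and 143, 109 and 136 CPM in resveratrol 1 to 3. In both, HFD unmatched lay just above resveratrol 2, the lowest of its group, and neither passed (Insr log2 0.60, SE 0.19, adjusted p = 0.0823; Irs1 log2 0.73, SE 0.25, adjusted p = 0.109). Without HFD unmatched both passed in edgeR, at adjusted p = 0.0239 (range over single libraries left out 0.0239 to 0.268) and 0.0161 (0.0161 to 0.282). The glucose transporter gene Slc2a4 was nearly equal (log2 0.01, SE 0.24, adjusted p = 0.988).

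All 13 mitochondrially encoded genes had a log2 change above 0, with a median of 0.55. EdgeR called 0 of them, 9 stood at an unadjusted p under 0.05, DESeq2 called 5 and limma-voom 11. Over all 17535 genes these numbers were 732, 3931, 2086 and 5129. Mitochondrial mRNA made up 0.833 to 1.16% of mRNA counts in HFD and 1.34 to 1.65% in resveratrol, so the groups did not overlap. Nuclear genes of the respiratory chain had a median of 0.06 over 45 genes, with 0 called by edgeR, 6 at an unadjusted p under 0.05, and 0 called by DESeq2 and 8 by limma-voom. The share of small structural RNAs in all counts overlapped between the groups, at 6.20 to 8.23% in HFD and 6.00 to 6.75% in resveratrol. Suclg2, a subunit of succinyl-CoA ligase in the citrate cycle, rose 2.22-fold (log2 fold change 1.15, SE 0.29, edgeR adjusted p = 0.0466). It was the 1 citrate cycle gene of 22 that edgeR called, against 4.17% of all genes. Of 24 genes of branched-chain amino acid breakdown, a pathway that is active in healthy fat, 20 had a log2 change above 0 (median 0.33), and 0 passed in edgeR, with 9 at an unadjusted p under 0.05, 5 called by DESeq2 and 19 by limma-voom.

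Secreted regulators of tissue growth were among the rises. Bmp2 (chromosome 2, 133552159 to 133562885), a bone morphogenetic protein (BMP) ligand, gave 11.6 CPM in HFD unmatched, 9.29, 8.82 and 7.99 CPM in HFD 1 to 3, and 16.2, 16.4 and 15.6 CPM in resveratrol 1 to 3. The values were tight within resveratrol and the groups did not overlap, with a rise of 1.7-fold (log2 fold change 0.77, SE 0.14, edgeR adjusted p = 0.035). Fgf2, fibroblast growth factor 2, stood at 4.83 CPM in HFD unmatched, 5.53, 8.51 and 2.87 CPM in HFD 1 to 3, and 10.1, 8.61 and 94.9 CPM in resveratrol 1 to 3. Resveratrol 3 was far above all others (log2 fold change 2.80, SE 0.73, edgeR adjusted p = 0.0497), and without it the log2 change was 0.80. The call was lost without HFD unmatched too (adjusted p = 0.0535, and up to 0.379 as single libraries were left out). It was also lost when reads of long non-coding features within the gene were added (log2 1.10, adjusted p = 0.249). Of 29 growth factor and BMP genes 3 rose, Bmp2 and Fgf2 among them, and none fell (median log2 change 0.34). Of all genes 1.09% rose and 3.09% fell. Agt, angiotensinogen, the precursor of angiotensin made by fat as well as liver, gave 93 CPM in HFD unmatched, 39.2, 56.4 and 48.7 CPM in HFD 1 to 3, and 156, 202 and 183 CPM in resveratrol 1 to 3. All resveratrol libraries were higher, by 3.04-fold (log2 fold change 1.60, SE 0.28, edgeR adjusted p = 0.035). Cp, the copper-carrying ferroxidase ceruloplasmin, stood at 116 CPM in HFD unmatched, 96.2, 94.8 and 105 CPM in HFD 1 to 3, and 174, 246 and 182 CPM in resveratrol 1 to 3. It rose 1.95-fold (log2 fold change 0.96, SE 0.15, edgeR adjusted p = 0.0348), with small spread in HFD.

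Of 28 NRF2 target and antioxidant genes 3 rose and 2 fell, against 1.09% and 3.09% of all genes, with a median log2 change of -0.08. Of 9 aryl hydrocarbon receptor targets 1 rose. The glutathione transferase genes Gsta4 and Gstt1 rose 3.08-fold (log2 1.62, and 2.35 without HFD unmatched) and 1.77-fold, and Gpx3, the glutathione peroxidase of plasma, stood at 149 CPM in HFD unmatched, 146, 75.7 and 74.4 CPM in HFD 1 to 3, and 219.9, 307 and 263 CPM in resveratrol 1 to 3, a rise of 2.37-fold (log2 fold change 1.24, SE 0.26, edgeR adjusted p = 0.036). Sod2, mitochondrial superoxide dismutase, fell 1.72-fold and the peroxiredoxin gene Prdx1 1.7-fold. Ugt1a6a, a glucuronosyltransferase and aryl hydrocarbon receptor target, rose 1.8-fold (log2 fold change 0.85, SE 0.19, edgeR adjusted p = 0.0365). Of 22 clock genes 1 rose and none fell, against the same shares of all genes. Among the clock genes that did not pass, Per1 (log2 0.53, SE 0.16, adjusted p = 0.0786), Arntl (log2 0.37, SE 0.22, adjusted p = 0.339) and Dbp (log2 -0.18, SE 0.51, adjusted p = 0.871) gave these values, and Dbp was 29.3 CPM in resveratrol 2 against 7.94 and 7.92 CPM in resveratrol 1 and 3.

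The remaining large rises were Adgrg2, Olfr1033, BC035947, Gm42517, Lrrc4 and Fign. Olfr1033, annotated as an olfactory receptor, rose 4.3-fold, BC035947 3.51-fold and Gm42517 3.12-fold. Adgrg2 (chromosome X, 160390690 to 160498070), an adhesion receptor known from epididymal duct cells, stood at 31.7 CPM in HFD unmatched, 14, 21.5 and 14.5 CPM in HFD 1 to 3, and 60.8, 273 and 75 CPM in resveratrol 1 to 3. Resveratrol 2 was by far the highest (log2 fold change 2.74, SE 0.67, edgeR adjusted p = 0.0418). In that library 23 markers of motile ciliated epithelium summed to 792 CPM, against 111 and 153 CPM in resveratrol 1 and 3 and 56.4 to 86.6 CPM in HFD, where 1 of the 23 was at 0 in all 4 libraries. Their part in the rise of Adgrg2 was not tested. Without resveratrol 2 the log2 change was 1.73. Epididymis principal cell markers summed to 0.356 to 7.499 CPM in resveratrol and to 0.341 to 0.443 CPM in HFD, with 11 of 18 at 0 in all 7 libraries. Fign, a microtubule-severing enzyme, rose 2.64-fold (log2 fold change 1.40, SE 0.26, edgeR adjusted p = 0.036). Lrrc4 rose 2.94-fold (log2 fold change 1.55, SE 0.35, edgeR adjusted p = 0.0367) but did not pass with reads of long non-coding features within it added (log2 0.32, adjusted p = 0.214).

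Several of the largest falls were genes outside the macrophage lists. Tph2 (chromosome 10, 115078641 to 115185022), tryptophan hydroxylase of serotonin neurons, stood at 7.79 CPM in HFD unmatched, 73.1, 50.1 and 107 CPM in HFD 1 to 3, and 2.15, 1.1 and 0.958 CPM in resveratrol 1 to 3. It fell 42-fold (log2 fold change -5.39, SE 0.91, edgeR adjusted p = 0.035), and its level on the normal diet was 0.281 ± 0.134 CPM (SD, n = 4). Gpr50 (chromosome X, 71663667 to 71669257), an orphan relative of the melatonin receptors, gave 22.9 CPM in HFD unmatched, 51.6, 51.3 and 92.8 CPM in HFD 1 to 3, and 0.955, 2.82 and 0.511 CPM in resveratrol 1 to 3. Every HFD library was above 20 CPM and every resveratrol library below 3 CPM, a fall of 38.4-fold (log2 fold change -5.26, SE 0.98, edgeR adjusted p = 0.036), with a log2 change of -6.20 without resveratrol 2. Otop1, a proton channel that is induced in the fat of obese mice, stood at 3.56 CPM in HFD unmatched, 15.9, 11.3 and 23.2 CPM in HFD 1 to 3, and 0.955, 1.24 and 0.319 CPM in resveratrol 1 to 3. It fell 16-fold (log2 fold change -4.00, SE 0.65, edgeR adjusted p = 0.035). The coagulation factor gene F7 fell 19.7-fold, the retinol-binding protein receptor relative Stra6l 14.1-fold and the retinol dehydrogenase gene Dhrs9 13.6-fold.

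Cell division genes had lower values with resveratrol, and how many passed depended on the tool. All 32 DNA replication and mitosis genes had a log2 change below 0, with a median of -1.24, and in 25 the groups did not overlap, against 12.4% of all genes lower without overlap. The test called 2 of them, the sliding clamp gene Pcna at 34.8 CPM in HFD unmatched, 65.8, 61.7 and 79.5 CPM in HFD 1 to 3, and 30.3, 32.3 and 28.9 CPM in resveratrol 1 to 3 (log2 -0.99, SE 0.23, adjusted p = 0.0367) and the helicase subunit gene Mcm6 (log2 -0.85, SE 0.22, adjusted p = 0.047), and without HFD unmatched 8. Of the 32, 21 were at an unadjusted p under 0.05, DESeq2 called 10 and limma-voom 28. Collagen genes gave 0 calls of 23 in edgeR, with a median of -0.56, 12 at an unadjusted p under 0.05, 8 called by DESeq2 and 12 by limma-voom, and 7 falls without HFD unmatched. Of 24 endoplasmic reticulum stress genes 3 fell and 1 rose, against 3.09% and 1.09% of all genes. Those that fell were Sdf2l1 (log2 -1.40, SE 0.29, adjusted p = 0.036), Calr and Ddit3. The asparagine synthetase gene Asns rose (log2 0.89, SE 0.23, adjusted p = 0.0491). The p53 targets Bax and Zmat3 fell 1.56-fold and 1.41-fold, 2 of 17 in their list, against 3.09% of all genes.

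Rbm12, the strongest call of the table, came with a change in which feature received the reads. Rbm12 (chromosome 2, 156091958 to 156111961) had 304, 355, 340 and 317 raw counts in HFD unmatched and HFD 1 to 3, and 37, 40 and 47 in resveratrol 1 to 3 (log2 fold change -2.73, SE 0.22, edgeR adjusted p = 0.00019). A long non-coding feature of the NONCODE catalogue that lies inside it, NONMMUT040716.2 (chromosome 2, 156091958 to 156095089), received between 5 and 6 counts per HFD library and between 310 and 381 in resveratrol 1 to 3. Rbm12 took 98.1 to 98.6% of the counts of both features in HFD and 8.85 to 13.2% in resveratrol 1 to 3. The share was 6.98 to 12.3% in the normal diet and metformin libraries, and 98.1% in resveratrol 4, the library set aside. Summed, both features gave 15.7 to 18.2 CPM in HFD and 21.2 to 26.4 in resveratrol, and the fit with long non-coding reads added to the gene turned the fold change to a log2 of 0.42 (SE 0.10, adjusted p = 0.0328). Raw reads and the counting step were not analysed here, and whether transcription or read assignment differed was not tested.

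**Figure D5:**
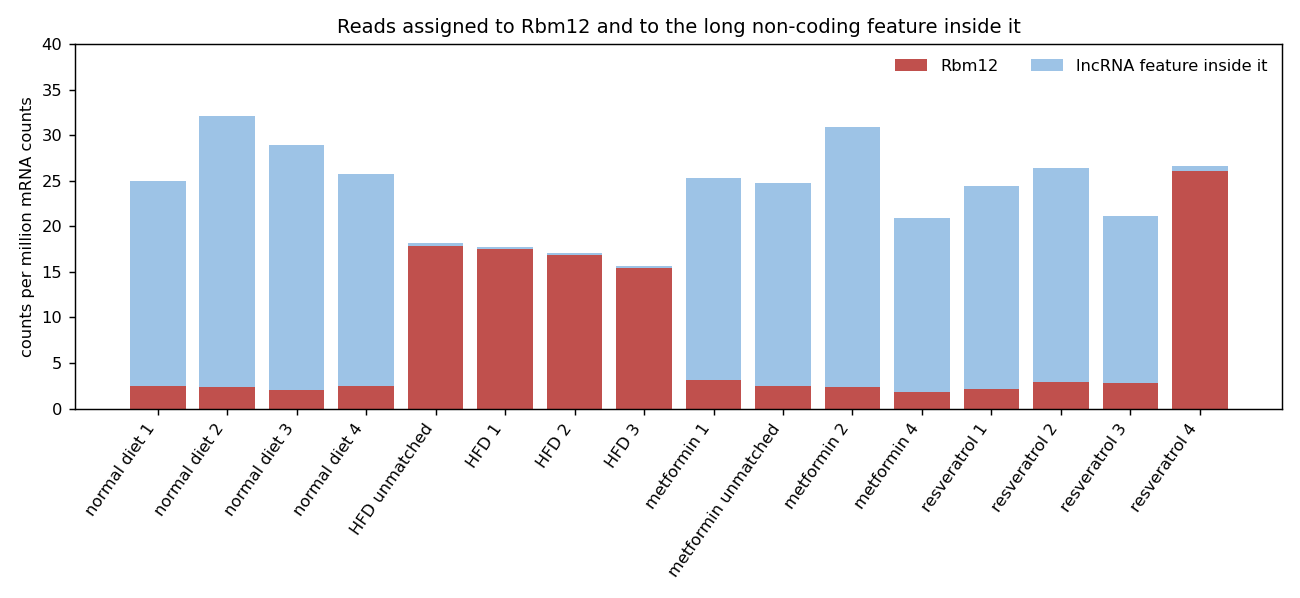
CPM (y axis) assigned to Rbm12 (red) and to the long non-coding feature inside it (blue) in each of 16 libraries (x axis). The 4 HFD libraries and resveratrol 4 are almost wholly red and the other 11 mostly blue, while the height of the whole bar varies far less.

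More long non-coding features rose than fell, on a scale set by the library sizes and TMM factors of the mRNA counts. Of 24046 features tested, 469 (1.95%) rose and 68 (0.283%) fell, and the median log2 change over all of them was 0.32. Of the features that rose and fell, 410 and 62 were NONCODE entries, many of which overlap genes. As single libraries were left out, the rises numbered from 1 to 1239. Trp53cor1 (chromosome 17, 29057474 to 29078961), known as lincRNA-p21 and lying beside the p53 target Cdkn1a, stood at 5.61 CPM in HFD unmatched, 6.40, 5.79 and 5.48 CPM in HFD 1 to 3, and 2.63, 2.20 and 1.21 CPM in resveratrol 1 to 3. It was lower in each resveratrol library (log2 -1.53, SE 0.31, edgeR adjusted p = 0.0313). Carmn, a smooth muscle transcript, rose from 30.97 ± 5.67 to 56.4 ± 1.32 CPM (log2 0.86, SE 0.21, edgeR adjusted p = 0.0449). Of 18 smooth muscle and pericyte markers 1 rose, against 1.09% of all mRNA genes tested, the potassium channel gene Kcnj8 (log2 0.69, SE 0.18, adjusted p = 0.05). Trp53cor1 and Carmn were chosen from 61 called Ensembl-named features after their values were seen.

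Few genes passed the test against the other groups. Compared with metformin, the other drug given to HFD mice, 2 genes passed the test (0.0114% of 17535), both lower with resveratrol, with 1228 at an unadjusted p under 0.05 and 71 called by DESeq2. Ces5a, an esterase of the epididymis, had 0.239, 0.0689 and 0.0638 CPM in resveratrol 1 to 3 and 3.85 to 6.05 CPM in metformin, and Pate2, a gene of the male tract, 0.128 to 0.179 and 1.06 to 1.82 CPM. Crisp1, of the same tissue, was at 14.6 to 15.97 CPM in the metformin libraries and at 0 to 0.192 CPM in resveratrol 1 to 3. Markers of other tissues varied between libraries too. Spermatogenic cell markers summed to 3424.6 CPM in metformin 2 and to 55.3 to 135 CPM in resveratrol 1 to 3. Seminal vesicle genes summed to 361 and 1465 CPM in normal diet 2 and 4 and to 1.34 to 1.84 CPM in resveratrol. Ciliated epithelium markers summed to 107 to 1917 CPM in metformin. The part of such tissue in the low counts of calls was not tested. Compared with the normal diet, 18 genes (0.103%) were higher and 8 (0.0456%) lower in resveratrol, and DESeq2 called 402. Among them Slc5a7, a choline transporter, stood at 77.4 CPM in HFD unmatched, 177, 142 and 253 CPM in HFD 1 to 3, and 19.8, 58.8 and 11.6 CPM in resveratrol 1 to 3 and at 1.99 ± 0.408 CPM on the normal diet (SD, n = 4). Its fall against HFD was log2 -2.44, SE 0.60, adjusted p = 0.0418, with a log2 change of -3.37 without resveratrol 2. Each resveratrol library lay between all HFD and all normal diet libraries for it. The same held for Cp, at 378 ± 43.8 CPM on the normal diet, and for the receptor family gene Paqr9, at 24.4 ± 7.44 CPM.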

How the data were processed

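Transcripts of epididymal fat were measured by RNA sequencing. Per the submitters' processing notes, reads passed through fastp and HISAT2 with the GRCm38 build. The deposited counts are whole numbers per transcript and library, and the deposited FPKM values were computed by the authors from them, per the file headers. Which counter, strand setting and annotation release were used is not given in the sources used here. Reads of overlapping and antisense genes may therefore be mixed. Each line of the mRNA table holds 44 cells under 43 header names, so counts were read as the last 16 cells in the order of the last 16 names. The totals implied by counts and FPKM of the long non-coding table matched this reading within 0.0418% and any other by no less than 0.492%. A total of 5 broken records were rejoined, and 26 names turned into dates were replaced. Of the 16 count columns 14 match a title. The other 2, HFD unmatched and metformin unmatched, were kept by the prefix of their code, and their 4 FPKM columns were not used.

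Transcripts were summed to 27150 genes. edgeR 4.0.16 (R 4.3.3) fitted its robust quasi-likelihood model with TMM scaling and its expression filter to 15 libraries with group as the only term, sharing 1 estimate of the spread. Adjusted p is Benjamini-Hochberg over all genes tested, at 0.05. The script was tested on simulated data with 200 changed genes. Alternatives included DESeq2 1.42.0 and limma 3.58.1. Replicates are separate samples by their labels, and p-values measure only the spread between these libraries. Precision rests on 3 and 4 libraries.

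Named were the 12 largest rises and 12 largest falls past the test with at least 5 CPM in the higher group and no overlap, up to 5 members per list with the smallest p, and a panel of fat and drug-target genes whatever their result. Lists and members were chosen with earlier results of these data known. A few genes that met this rule are not reported here.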

Additional observations from a re-analysis of the deposited data

Results flagged for a closer look

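Of 119 genes examined for an HFD library far from the other 3 by Dixon's criterion, 20 met it, where chance gives about 1 in 20 groups. In 19 of the 20 the library was HFD unmatched, and each time its value lay to the same side of HFD 1 to 3 as the resveratrol mean. It was the highest of its group for Gsta4 at 10.93 CPM, Lrrc4 at 3.863 and Fign at 10.68 CPM. Among fat cell and metabolic genes it was highest for Adipoq at 3063 CPM, Slc2a4 at 156.3, Pnpla2 at 1815, Mogat1 at 14.85, Gstt1 at 39.84 and Suclg2 at 21 CPM, and among regulators for Nfia at 152.8 and Thra at 103.5 CPM. It was the lowest for the macrophage and lipid genes Mmp12 at 44.24 CPM, Plin2 at 530.1 and Slamf8 at 7.062 CPM and for Pacsin2, which shapes membranes, at 57.88 CPM. It was also the lowest for Cd74 at 612.5 CPM, H2-Eb1 at 402.4, Il7r at 13.64 and Mcm6 at 25.35 CPM. For Sycp3, a protein of meiotic chromosomes, HFD 3 was the highest at 46.7 CPM.

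Resveratrol and metformin libraries, both on the high-fat diet, differed in Ces5a (log2 difference -5.1) and Pate2 (-3.37), tested directly with edgeR. Both are genes of the male tract, and the part of such tissue in the difference was not tested. In the resveratrol library set aside, Crisp1 stood at 12131 CPM, against 0 in every HFD library.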

How the results depend on the processing

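HFD 1 to 3 share the second number of their animal codes with resveratrol 1, 3 and 2 in that order, and what the number marks is not stated. Over genes, the deviations of same-numbered libraries from their group means correlated at -0.026, 0.082 and -0.032. Of the 3 HFD libraries 1, HFD 2, correlated best with its own number. Whether same-numbered libraries were paired in any way was not tested. With this number as a replicate block, chosen after seeing the data, 1704 genes passed (510 that rose, 1194 that fell), with 1 against metformin, 15 against the normal diet, and 734 rising and 158 falling non-coding features. The direction of each of the 107 named genes past the test held under each alternative except 3: with resveratrol 4 kept, Pdia3 had a log2 change of 0.17 and Tm7sf2 of 1.02, and with reads of long non-coding features within a gene added, Rbm12 had 0.42. Counts of calls moved far more. Leaving out single libraries gave 1 to 2066 genes in all, 0 to 760 that rose and 1 to 1306 that fell, and 0 to 3 against metformin, 6 to 21 against the normal diet, and 1 to 1239 rising and 0 to 259 falling non-coding features. What follows gives genes called, with those that rose and fell in parentheses. Without the filter on low counts they were 351 (74, 277), against metformin 0, against the normal diet 15, and non-coding features 64 rising and 16 falling. With the HFD and resveratrol libraries alone they were 1 (0, 1), with 10 and 5 non-coding features. With resveratrol 4 they were 395 (87, 308), and 0 and 0 against metformin and the normal diet. With a covariate for ciliated epithelium genes they were 1259 (545, 714, so 43.3% rose against 26.1%), then 4 and 213, with 799 non-coding rises. DESeq2 gave 2086 (772, 1314, 37.01% rose), 71 and 402, with 1160 and 228 non-coding features. Limma-voom with sample weights gave 5129 (2197, 2932, 42.8% rose), 36 and 765, with 1209 and 177. Without HFD unmatched 36.8% rose. Alternatives chosen after seeing the data were these. Without HFD unmatched and resveratrol 2 the counts were 1491 (521, 970), 1 and 11, with 142 non-coding falls. Without the metformin libraries 95 genes passed against the normal diet and 41 non-coding features fell. Without the 5 libraries rich in ciliated epithelium genes the counts were 17 (8, 9), 41 against the normal diet, and 18 and 7 non-coding features. Without metformin 2 they were 1317 (360, 957) and 120 against the normal diet. The cause of these moves was not tested, and some of the fits held fewer libraries. Over all settings the median log2 change of all genes lay between -0.01 and 0.08.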

Other observations

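Outside the gene lists lay 640 of the 732 called genes, 175 that rose and 465 that fell. The genes below were chosen from them after their values were seen, so they are examples with no weight of their own. Among small rises with narrow spread were genes of splicing and RNA binding. Srsf5, a splicing factor, stood at 143 CPM in HFD unmatched, 138, 139 and 125 CPM in HFD 1 to 3, and 183, 199 and 192 CPM in resveratrol 1 to 3 (log2 fold change 0.49, SE 0.07, edgeR adjusted p = 0.0291). Clk4, a kinase that phosphorylates such factors, rose from 63.8 ± 2.25 to 86.3 ± 3.71 CPM and Clk1 from 98.5 ± 4.81 to 126 ± 4.6 CPM (SD, n = 4 and n = 3). The groups did not overlap in either, although each rise was below 1.4-fold. Rbmx, Rnpc3 and Hnrnpr, which bind RNA, rose 1.4-fold, 1.59-fold and 1.33-fold.

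Among the rises were some transcription factor genes too. Meis1 rose from 18.1 ± 4.34 to 34.4 ± 1.4 CPM (log2 fold change 0.93, SE 0.14, edgeR adjusted p = 0.0348), and Meis2 1.52-fold. Hoxa5, a homeobox gene expressed in fat, stood at 9.23 CPM in HFD unmatched, 6.85, 6.71 and 5.9 CPM in HFD 1 to 3, and 13.4, 11.9 and 17.8 CPM in resveratrol 1 to 3 and rose 2-fold. Nfia, Sox6 and the thyroid hormone receptor gene Thra rose 1.51-fold, 1.68-fold and 1.39-fold. In Nfia and Thra, HFD 1 to 3 lay within 2 CPM of each other and HFD unmatched lay between them and the resveratrol libraries. Among the falls, Adra1d, an alpha-1 adrenergic receptor, stood at 20.5 CPM in HFD unmatched, 25.2, 23.7 and 21.6 CPM in HFD 1 to 3, and 10.7, 12.1 and 8.81 CPM in resveratrol 1 to 3 (log2 fold change -1.11, SE 0.16, edgeR adjusted p = 0.0348). Also among the falls were 4 genes known from leukocytes, the receptor genes Slamf8 (6.68-fold) and Tlr8 (4.71-fold), the transcription factor gene Irf8 (2.34-fold) and the actin-bundling protein gene Lcp1 (4.14-fold).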
